A study of Mus musculus with 6 samples.

Results

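The YAP-TEAD transcription factors and a small group of their targets and regulators were examined in sorted mouse cardiomyocytes (CMs) that overexpressed SRF. The group holds 9 genes chosen by symbol for their known roles, of 23337 genes in the deposited count table: the coactivator genes Yap1 and Wwtr1, the DNA-binding factors Tead1 and Tead4, the target genes Ctgf and Cyr61, and the regulators Amotl2, Lats2 and Ajuba. All 9 were present in the table, Ajuba under its older symbol Jub, and all 9 passed the filter on low counts.

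Wildtype mice received AAV9-cTNT-SRF-2A-GFP (SRF-OE) or AAV9-cTNT-GFP (GFP) on postnatal day 1, at 5e8 vector genomes per g. GFP+ CMs were sorted on postnatal day 14 and profiled by RNA-seq of polyadenylated RNA, amplified with a low-input kit. The cTNT promoter is that of cardiac troponin T, so both constructs were aimed at CMs, and the control cells carried the same vector type and GFP without SRF. The labels list 3 samples in each group, but only 5 columns of the table hold counts, since the column headed OE1 holds gene lengths, so SRF-OE was represented by replicates 2 and 3. Libraries are named as the header names their columns. The column of gene symbols is itself headed Chr, and whether the header stands above the right columns cannot be told from the table. A header displaced by 1 column would place the library labelled GFP1 in SRF-OE and would change the name of every other library. The labels do not say whether the samples came from separate animals, and p-values measure only the spread between these libraries.

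Total counts ran from 14137433 to 23159631 per library. Levels are given as CPM, that is, counts relative to the library size after scaling with edgeR's TMM factors, and a difference is the log2 fold change of SRF-OE over GFP from edgeR's quasi-likelihood test, with Benjamini-Hochberg adjustment over all genes tested. Srf stood at 360 and 748 CPM in SRF-OE replicates 2 and 3 and at 67.2 and 85.1 CPM in GFP replicates 2 and 3, but at 338 CPM in the library labelled GFP1, which goes against its label. Each result is therefore given with the 5 libraries as labelled and again without the library labelled GFP1. With 5 libraries 0 of 13754 genes (0.0%) passed an adjusted p of 0.05 in edgeR, while 6.35% were higher and 7.59% lower at an unadjusted p under 0.05, and DESeq2 called 11 higher and 213 lower. Without the library labelled GFP1, edgeR called 1.98% of 13397 genes higher and 0.97% lower.

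YAP and TAZ, the product of Wwtr1, are coactivators that do not bind DNA themselves and reach target genes through the TEAD proteins. The Hippo kinase cascade, in which MST acts on LATS and LATS phosphorylates YAP and TAZ, holds YAP and TAZ in the cytoplasm. Actin tension frees them, so that their activity is set mostly at the protein level. In the heart YAP and TEAD1 are known for their part in CM proliferation and growth, and several YAP-TEAD targets, Ctgf and Cyr61 among them, are also known targets of SRF and its actin-sensing cofactor MRTF.

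The bases around the TEAD hexamer are shown for the members whose hexamer lies upstream of every annotated transcript, because this hexamer is the feature by which TEAD proteins are known to recognise DNA. RefSeq promoter windows of GRCm38.p6, from 250 bases before to 50 after a start site, were found for 6 of the 9 members. Tead1, Tead4 and Ctgf had no entry. Letters in capitals mark GGAATG or its reverse complement CATTCC, each sequence runs 5′ to 3′ in the direction of the gene, and all 4 lie on the minus strand.
Cyr61, chr3:145650063-145650148: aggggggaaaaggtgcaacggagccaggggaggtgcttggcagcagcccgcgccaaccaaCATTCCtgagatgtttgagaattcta
Yap1, chr9:8004712-8004797: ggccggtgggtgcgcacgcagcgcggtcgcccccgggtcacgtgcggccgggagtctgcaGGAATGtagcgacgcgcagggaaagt
Wwtr1, chr3:57576021-57576106: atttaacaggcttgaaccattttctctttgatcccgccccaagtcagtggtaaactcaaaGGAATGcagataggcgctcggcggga
Ajuba, chr14:54577800-54577907: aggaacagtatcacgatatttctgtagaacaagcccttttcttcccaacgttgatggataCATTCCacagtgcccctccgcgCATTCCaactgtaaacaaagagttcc

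The hexamer began 103 bases before the start of Cyr61 and 141 bases before that of Yap1. In Wwtr1 it lay 136 and 170 bases before its 2 annotated starts, and Ajuba held 2 copies, 186 and 164 bases before the start. Amotl2 held it 65 bases before its RefSeq start, within the first exon of another annotated transcript, and Lats2 held it at base 5 after the first of its 2 starts. A hexamer on either strand was therefore present in 6 of 6 members with a window, against 16.6% of the 27025 genes with one. The CArG box, the motif bound by SRF, was searched on both strands in the same windows as CC, then 6 bases of A or T, then GG. It was found in 0 of 6 members, against 1.81% of genes. Boxes with a mismatch or outside these windows were not searched. Of the 13 actin-cytoskeletal and immediate early SRF-MRTF targets, 10 had a window, and 4 of these held a CArG box and 4 the hexamer. A match in these windows is a description of the letters, and binding was not measured here.

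Yap1 and Wwtr1 differed little between the groups. Yap1 lies on chromosome 9 of GRCm38, from 7931999 to 8004596. It stood at 61.3 and 79.4 CPM in SRF-OE replicates 2 and 3 and at 61.8, 66.5 and 60.2 CPM in GFP replicates 1, 2 and 3. Only SRF-OE replicate 3 was above the controls, and SRF-OE replicate 2 fell among them, so the groups overlapped. The log2 fold change was 0.16 (standard error 0.15, edgeR adjusted p = 0.61), and leaving out the library labelled GFP1 gave 0.16. Without SRF-OE replicate 3 it was -0.046.

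Wwtr1, on chromosome 3 from 57455649 to 57575910, stood at 145.7 and 135.2 CPM in SRF-OE and at 131.4, 131.8 and 117.3 CPM in GFP. Both SRF-OE libraries were above all 3 controls, but the gap between 135.2 and 131.8 CPM was smaller than the spread within either group. Its log2 fold change was 0.15 (standard error 0.12, edgeR adjusted p = 0.57), and leaving out the library labelled GFP1 gave 0.18 (adjusted p = 0.38). Per kb of transcript, Wwtr1 made up between 59.7% and 67.4% of the summed Yap1 and Wwtr1 level in every library. Its mean share was 63.6% in SRF-OE and 63.7% in GFP.

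Tead1, the main TEAD gene of these cells by level, was higher in both SRF-OE libraries, without passing the adjusted test. It lies on chromosome 7 from 112679318 to 112906807. Its level was 69.6 and 70.8 CPM in SRF-OE and 61.8, 47.3 and 53.1 CPM in GFP. The groups did not overlap, the SRF-OE pair lay close together, and the library labelled GFP1 was the highest control. SRF-OE over GFP gave a log2 fold change of 0.38 (standard error 0.15, unadjusted p = 0.0385 and adjusted p = 0.36 in edgeR's fit over all genes). Leaving out the library labelled GFP1 gave 0.49 (standard error 0.13, edgeR adjusted p = 0.0813). Leaving out each library in turn gave values from 0.29 to 0.49.

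Tead4, on chromosome 6 from 128224288 to 128300823, was barely detected. SRF-OE replicate 2 had 20 counts and SRF-OE replicate 3 had 3, with exact 95% Poisson intervals of 12.2 to 30.9 and 0.619 to 8.77. The 3 GFP libraries had 15, 14 and 8 counts, between the SRF-OE values. These intervals cover counting error only, and the reads carry no molecular identifiers. Its log2 fold change was -0.096 (standard error 0.83, edgeR adjusted p = 0.96), so a difference was not detectable at this depth. Without SRF-OE replicate 2 the value was -2.29, and without SRF-OE replicate 3 it was 0.79.

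The other TEAD genes lay in the same direction as Tead1. Tead2 stood at 5.26 and 3.85 CPM in SRF-OE and at 3.09, 2.71 and 1.97 CPM in GFP, and its log2 fold change was 0.80 (standard error 0.32, edgeR adjusted p = 0.36). Tead3 stood at 7.69 and 6.69 CPM in SRF-OE and at 5.85, 4.82 and 4.97 CPM in GFP, and its log2 fold change was 0.46 (standard error 0.22, edgeR adjusted p = 0.39). Neither pair of groups overlapped, and neither gene passed the test with or without the library labelled GFP1. The summed level of the 4 TEAD genes was 12.4 and 11.2 CPM per kb in SRF-OE against 9.84, 7.84 and 8.13 CPM per kb in GFP. Tead1 held 56.3% to 65.6% of that sum, Tead3 19.8% to 20.6% and Tead4 0.381% to 3.03%, and the mean share of Tead2 was 18.1% in SRF-OE and 14.2% in GFP.

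Ctgf had the largest difference of the 9 genes and stood apart from its family partner Cyr61, which lay in the other direction. Both encode secreted matricellular proteins of the CCN family, and both are widely used as readouts of YAP-TEAD activity. Ctgf, now named Ccn2, lies on chromosome 10 from 24595442 to 24598683. Its level was 188 and 324 CPM in SRF-OE replicates 2 and 3, 180 CPM in the library labelled GFP1, and 105 and 84.5 CPM in GFP replicates 2 and 3. The groups did not overlap, but SRF-OE replicate 2 was only just above the library labelled GFP1. SRF-OE averaged 256 ± 96.2 CPM (SD, n = 2), and the controls averaged 123 ± 50.3 CPM (SD, n = 3).

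The log2 fold change of Ctgf was 1.06 (standard error 0.36, unadjusted p = 0.024 and adjusted p = 0.35 in edgeR's fit over all genes), or 2.08-fold. Leaving out the library labelled GFP1 gave 1.44 (standard error 0.27, edgeR adjusted p = 0.0528), or 2.72-fold, just short of the threshold. DESeq2 with the 5 libraries gave 1.05 and an adjusted p of 0.0348. It gave an adjusted p to 1079 genes only, and Ctgf was the only member among them. Without SRF-OE replicate 3, the library with the most Srf, the edgeR value was 0.60 (adjusted p = 0.70).

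Cyr61, now named Ccn1, lies on chromosome 3 from 145646976 to 145649981. It stood at 61.6 and 87.6 CPM in SRF-OE and at 97.2, 95.7 and 112.6 CPM in GFP. All 3 controls, the library labelled GFP1 among them, were above both SRF-OE libraries. As a log2 fold change this was -0.45 (standard error 0.18, unadjusted p = 0.0448 and adjusted p = 0.36 in edgeR's fit over all genes). In the fit lacking the library labelled GFP1 it was -0.47 (edgeR adjusted p = 0.18), without SRF-OE replicate 2 it was -0.22, and without SRF-OE replicate 3 it was -0.73.

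The ratio of Ctgf to Cyr61 counts within a library does not depend on the scaling between libraries. It was 3.06 and 3.70 in SRF-OE replicates 2 and 3, 1.85 in the library labelled GFP1, and 1.10 and 0.75 in GFP replicates 2 and 3. The SRF-OE ratios were the highest, and the library labelled GFP1 lay between the groups. The mean log2 ratio differed by 1.55 between SRF-OE and GFP, and by 1.89 without the library labelled GFP1. An exact two-sided permutation test over the 5 libraries gave p = 0.2, the smallest this design allows in such a test, and 0.267 after Benjamini-Hochberg adjustment over 4 ratios. The 4 ratios were chosen after the values of their genes were seen.

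**Figure D1:**
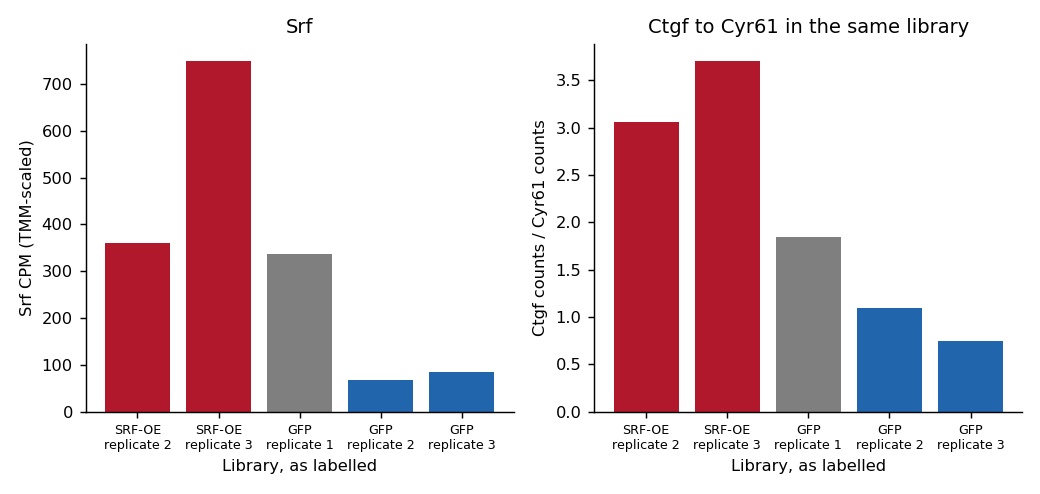
The left panel plots the Srf level (CPM) and the right panel the ratio of Ctgf to Cyr61 counts in each of the 5 libraries, red for SRF-OE, grey for the library labelled GFP1 and blue for the other GFP libraries, with 1 bar per library and no error bars. The library labelled GFP1, at 338 CPM of Srf, has a ratio of 1.85, between 1.10 in GFP replicate 2 and 3.06 in SRF-OE replicate 2.

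Of the other CCN genes, Wisp1 stood at 34.1 and 51.5 CPM in SRF-OE and at 16.8, 30.6 and 19.97 CPM in GFP, and its log2 fold change was 0.93 (standard error 0.29, edgeR adjusted p = 0.35). Nov stood between 1.42 and 3.30 CPM with overlapping groups, and Wisp2 did not pass the filter. Per kb, Ctgf made up 66.9% and 71.3% of the summed CCN level in SRF-OE and 59.0%, 44.6% and 36.9% in GFP. Cyr61 made up 25.9% and 22.8% in SRF-OE and 37.7%, 48.2% and 58.2% in GFP. Ctgf was the leading CCN gene in both SRF-OE libraries and in the library labelled GFP1, and Cyr61 in GFP replicates 2 and 3.

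Amotl2, Lats2 and Ajuba act on YAP and TAZ, and the first 2 are also YAP-TEAD targets that limit the activity that induced them. Amotl2, an angiomotin family scaffold that holds YAP at junctions and actin, lies on chromosome 9 from 102716672 to 102733418. It stood at 71.6 and 55.6 CPM in SRF-OE and at 59.8, 82.2 and 78.1 CPM in GFP. SRF-OE replicate 2 was above the library labelled GFP1 and below the other controls, so the groups overlapped. The log2 fold change was -0.21 (standard error 0.19, edgeR adjusted p = 0.61), and leaving out the library labelled GFP1 gave -0.33 (adjusted p = 0.23). It was -0.40 without SRF-OE replicate 2 and -0.044 without SRF-OE replicate 3.

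Its relative Amotl1, another angiomotin scaffold, lay in the other direction. Amotl1 stood at 45.2 and 54.1 CPM in SRF-OE and at 34.2, 27.9 and 27.2 CPM in GFP, with no overlap. With 5 libraries the log2 fold change was 0.74 (standard error 0.16, edgeR adjusted p = 0.35). With the library labelled GFP1 left out, Amotl1 rose by 0.86 (standard error 0.15, edgeR adjusted p = 0.0499), barely past the threshold. Amot had a mean of 4.42 CPM and a log2 fold change of -0.35 (edgeR adjusted p = 0.54). The ratio of Amotl1 to Amotl2 counts was 0.632 and 0.972 in SRF-OE and 0.572, 0.339 and 0.348 in GFP, and the exact two-sided permutation p was 0.2 (0.267 adjusted over the 4 ratios). Amotl2 nevertheless kept the largest share of the 3 angiomotin genes per kb, from 66.8% to 83.3%.

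Lats2, a kinase that phosphorylates YAP and TAZ, lies on chromosome 14 from 57689662 to 57758388. Its level was 72.6 and 70.9 CPM in SRF-OE and 59.4, 60.2 and 65.7 CPM in GFP. Both SRF-OE libraries were above all 3 controls. Its log2 fold change was 0.22 (standard error 0.12, edgeR adjusted p = 0.42), and leaving out the library labelled GFP1 gave 0.20. Lats1, its partner kinase, stood at 17.9 and 19.3 CPM in SRF-OE and at 21.9, 18.5 and 23.5 CPM in GFP, a log2 fold change of -0.19 (edgeR adjusted p = 0.59). Lats2 made up 77.9% to 84.0% of the summed LATS level per kb.

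Ajuba, a LIM-domain protein that restrains LATS kinases, lies on chromosome 14 from 54567472 to 54577558. It stood at 12.6 and 7.13 CPM in SRF-OE and at 9.98, 13.2 and 10.3 CPM in GFP. The SRF-OE libraries differed from each other more than the 3 controls did, and the groups overlapped. Its log2 fold change was -0.18 (standard error 0.29, edgeR adjusted p = 0.78), and 0.16 without SRF-OE replicate 3. Its relative Limd1 had a log2 fold change of -0.23 (edgeR adjusted p = 0.48). Another relative, Wtip, stood at 6.07 and 6.16 CPM in SRF-OE and at 3.47, 2.52 and 2.92 CPM in GFP, and its log2 fold change was 1.04 (standard error 0.26, unadjusted p = 0.00578 and adjusted p = 0.35 in edgeR's fit). The ratio of Wtip to Ajuba counts gave an exact two-sided permutation p of 0.2 and that of Ctgf to Amotl2 counts 0.4, or 0.267 and 0.4 after adjustment over the 4 ratios.

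**Figure D2:**
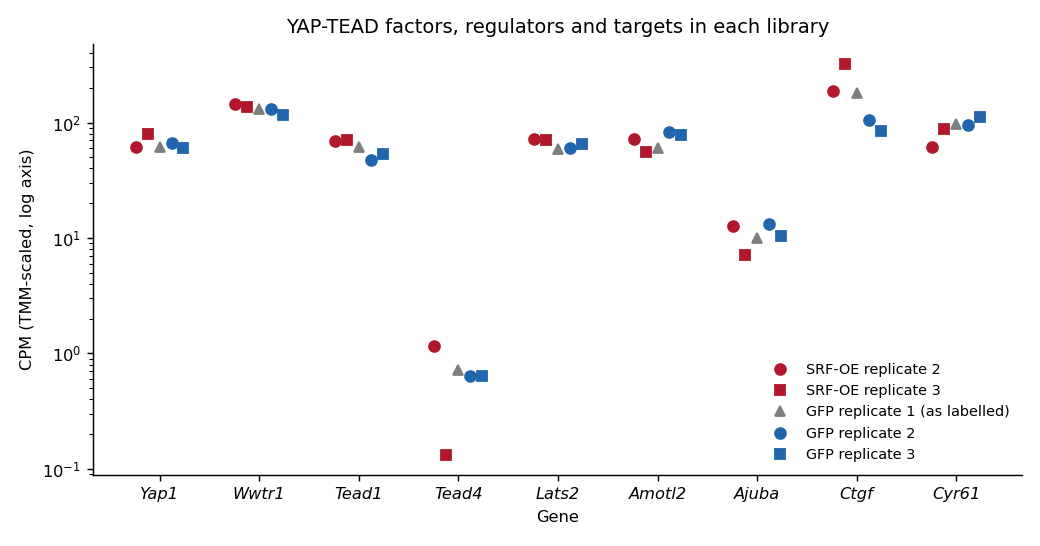
Level of each of the 9 genes (CPM, log axis) in the 5 libraries, with circles and squares for replicates 2 and 3, red for SRF-OE and blue for GFP, and a grey triangle for the library labelled GFP1. The points of Yap1 and Wwtr1 nearly coincide, Ctgf spreads from 84.5 to 324 CPM with SRF-OE on top, and Cyr61 has SRF-OE at the bottom.

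With the 5 libraries, 0 of the 9 genes passed the adjusted test in edgeR, where 0.0% of all genes did. DESeq2 called 1, Ctgf, as higher, where it called 1.02% of the 1079 genes with an adjusted p higher and 19.7% lower. At an unadjusted p under 0.05, 2 of the 9 were higher (Tead1 and Ctgf), where 6.35% of all genes were, and 1 was lower (Cyr61), where 7.59% were. The groups did not overlap for 4 genes that were higher in SRF-OE (Wwtr1, Tead1, Ctgf and Lats2), where 16.1% of all genes tested were in that position, and for 1 that was lower (Cyr61), where 17.3% were. Without the library labelled GFP1, edgeR called 0 of the 9, where 1.98% of all genes were called higher and 0.97% lower, and DESeq2 again called Ctgf, where it called 6.31% of 13521 genes higher and 6.16% lower. At an unadjusted p under 0.05 that fit had 2 of the 9 higher, where 14.4% of all genes were, and 0 lower, where 14.0% were.

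**Figure D3:**
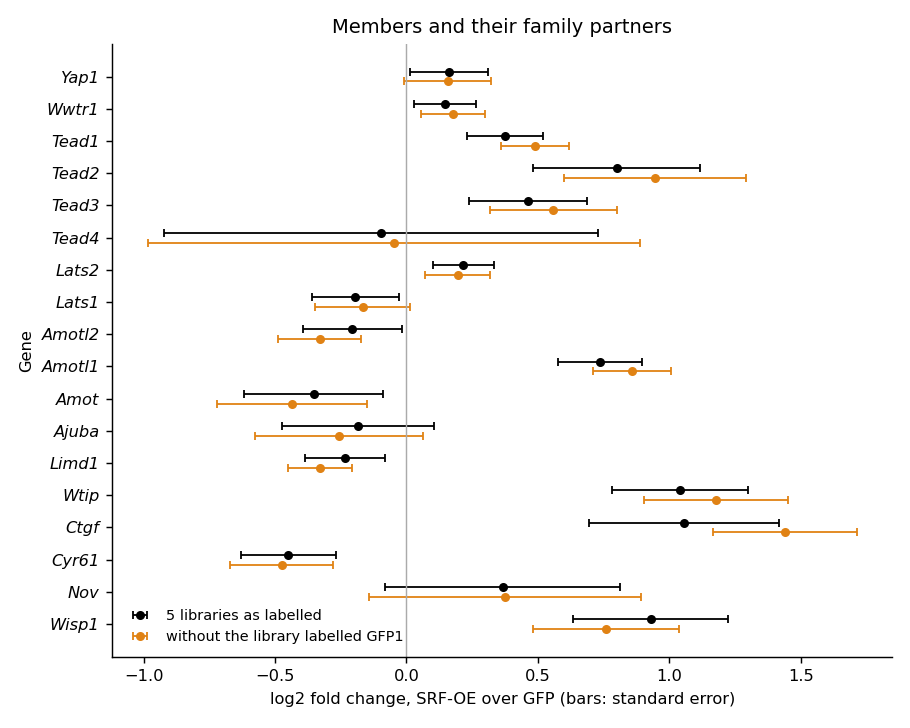
Log2 fold change of SRF-OE over GFP (points) with its standard error (bars) for the 9 genes and their family partners, black for the 5 libraries and orange without the library labelled GFP1. Ctgf at 1.06 and Cyr61 at -0.45, and Amotl1 at 0.74 and Amotl2 at -0.21, lie on opposite sides of 0 in both fits.

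Compared per length of transcript and averaged over the 5 libraries of both groups, Ctgf was the most abundant of the 9 genes, at 73.5 ± 39.3 CPM per kb (SD, n = 5 libraries), followed by Cyr61 at 44.8 ± 9.25, Wwtr1 at 27.7 ± 2.13 and Amotl2 at 16.6 ± 2.74. Yap1 had 15.8 ± 1.91 CPM per kb, Lats2 11.8 ± 1.08, Tead1 6.08 ± 1.03, Ajuba 3.04 ± 0.686 and Tead4 0.213 ± 0.118. The ranges over the 5 libraries overlapped between Ctgf and Cyr61, between Cyr61 and Wwtr1, and between Amotl2 and Yap1. The other neighbours in this order did not overlap. In GFP replicates 2 and 3 Cyr61 stood above Ctgf, at 47.2 and 55.5 against 43.7 and 35.2 CPM per kb, and in the other 3 libraries Ctgf was first. Reads of Yap1 and Ctgf cannot be told apart from those of the antisense genes Gm20416 and Gm15270 that overlap their exons, since the library kit does not mark strand, and Lats2 overlaps Gm49361 on the same strand.

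The profile of Ctgf across the 5 libraries was compared with that of 8522 genes with a mean of at least 10 CPM, by the root mean square difference of log2 CPM centred over the libraries. The nearest genes were Strada (0.0574), Slc16a7 (0.0593) and Slc7a5 (0.103), which encode a cofactor of the kinase LKB1, a monocarboxylate transporter and an amino acid transporter. Strada, for instance, stood at 29.3 and 50.8 CPM in SRF-OE and at 28.0, 15.4 and 14.1 CPM in GFP. Nearest to Yap1 were Mtmr9 (0.0292) and Atg7 (0.0302), whose levels also varied little. With 5 libraries such likeness is a description.

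A list of 18 further YAP-TAZ target genes, 17 of them tested, lay mostly above 0. With the 5 libraries 11 had a positive and 6 a negative log2 fold change, and the median was 0.59 against 0.03 over all genes. None (0 of 17) passed the adjusted test in edgeR, and 7 were higher and 1 lower at an unadjusted p under 0.05 (6.35% and 7.59% of all genes). DESeq2 called 1, Ankrd1, as higher (1.02% of the genes with an adjusted p). Ankrd1 was the only gene of the list to which it gave an adjusted p. The groups did not overlap for 6 that were higher and 2 that were lower, against 16.1% and 17.3% of all genes. Leaving out SRF-OE replicate 3 lowered the median to 0.28.

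Without the library labelled GFP1, 4 of the 17 target genes rose in edgeR's test and 0 fell, against 1.98% and 0.97% of all genes, and 8 were higher and 4 lower at an unadjusted p under 0.05, against 14.4% and 14.0%. DESeq2 called 8 higher and 1 lower in these libraries, against 6.31% and 6.16% of genes. The edgeR median was 1.14 against 0.04 over all genes. Ankrd1, a stress-responsive ankyrin repeat protein of the sarcomere and nucleus, stood at 1281 and 2105 CPM in SRF-OE, 1121 CPM in the library labelled GFP1, and 576.6 and 635.9 CPM in GFP replicates 2 and 3. It rose by 1.49 on the log2 scale (standard error 0.26, edgeR adjusted p = 0.0499) without the library labelled GFP1. Tgfb2, a TGF-beta ligand, stood at 39.8 and 87.2 CPM in SRF-OE, 41.1 CPM in the library labelled GFP1, and 12.8 and 14.3 CPM in GFP replicates 2 and 3. It rose by 2.24 (standard error 0.37, edgeR adjusted p = 0.0486) in the same fit. In both genes, as in Ctgf, the library labelled GFP1 lay near SRF-OE replicate 2.

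The other genes called in that fit were Ccdc80, a secreted matrix protein, and Rbms3, an RNA-binding protein. Ccdc80 stood at 49.5 and 40.0 CPM in SRF-OE and at 31.7, 18.2 and 18.6 CPM in GFP, and rose by 1.29 (edgeR adjusted p = 0.0423) without the library labelled GFP1. Rbms3 stood at 19.9 and 24.5 CPM in SRF-OE and at 16.4, 8.90 and 7.97 CPM in GFP, and rose by 1.40 (edgeR adjusted p = 0.0473) in that fit. At the other end of the list lay F3, the coagulation initiator tissue factor, at 17.5 and 8.31 CPM in SRF-OE and 15.7, 30.4 and 29.5 CPM in GFP. Its log2 fold change was -0.97 (edgeR adjusted p = 0.36), and leaving out the library labelled GFP1 gave -1.22 (adjusted p = 0.0886). F3 was the gene of this list that DESeq2 called lower without that library (-1.23, DESeq2 adjusted p = 0.0026). The hexamer was found in 4 of the 12 target genes with a promoter window.

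**Figure D4:**
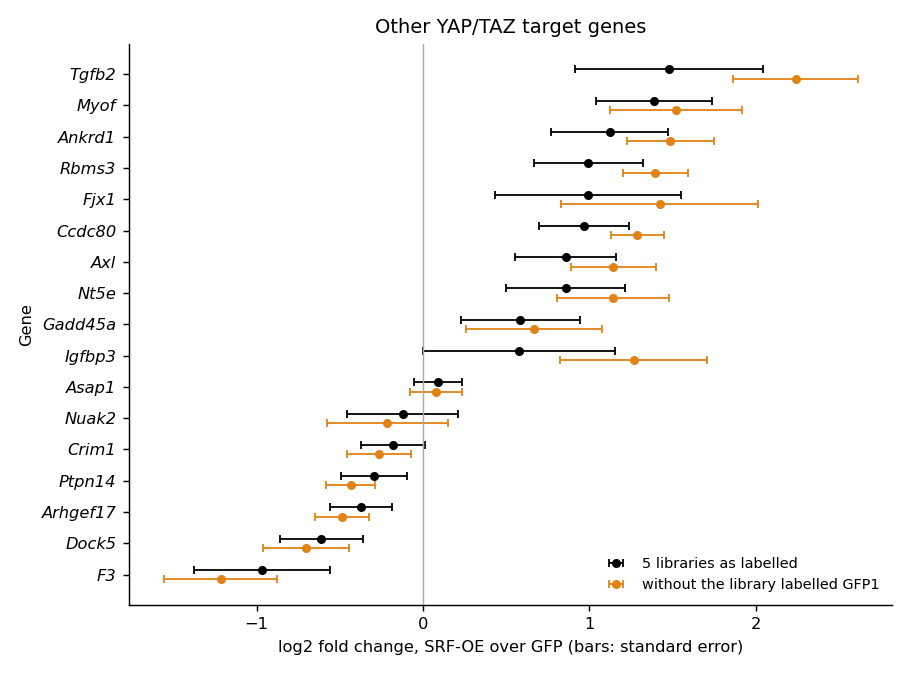
Log2 fold change of SRF-OE over GFP (points) with its standard error (bars) for the 17 tested genes of the target list, black for the 5 libraries and orange without the library labelled GFP1. Tgfb2 at 1.48 and 2.24 lies at the top and F3 at -0.97 and -1.22 at the bottom.

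The list of 44 upstream pathway, cofactor and family partner genes, 40 of them tested, was centred near the rest of the genome. It had 23 positive and 17 negative log2 fold changes and a median of 0.09 against 0.03 over all genes. The CCN genes Nov, Wisp1 and Wisp2 are on this list as family partners, and Ptpn14 is on both this list and the target list. With the 5 libraries 0 of the 40 passed the adjusted test in edgeR. At an unadjusted p under 0.05, 4 were higher, Wisp1 among them, and 2 lower, against 6.35% and 7.59% of all genes. DESeq2 called 0, but of this list it gave an adjusted p only to Strn3, Slmap and Ywhae. The groups did not overlap for 11 that were higher and 7 that were lower, against 16.1% and 17.3% of all genes, so that the lower counts were near or under those shares. In edgeR's fit without the library labelled GFP1, 39 were tested, with a median of 0.18. Of these edgeR called Amotl1 higher and 0 lower, against 1.98% and 0.97% of all genes, and 8 were higher and 8 lower at an unadjusted p under 0.05, against 14.4% and 14.0%. DESeq2 in the same libraries called Amotl1 higher and Btrc lower, against 6.31% and 6.16% of the genes with an adjusted p. There edgeR with no filter on low counts called 6 higher and 3 lower, against 7.75% and 6.09% of all genes.

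Among 14 tested kinases and adaptors of the Hippo core, 7 were positive and 7 negative. Stk3, the MST2 kinase, stood at 17.7 and 22.1 CPM in SRF-OE and at 17.6, 12.8 and 12.1 CPM in GFP, a log2 fold change of 0.49 (edgeR adjusted p = 0.37). Nf2, the membrane-linked activator of the LATS kinases, stood at 121.0 and 117.4 CPM in SRF-OE and at 129.1, 155.8 and 177.6 CPM in GFP, a log2 fold change of -0.37 (edgeR adjusted p = 0.36). Each had non-overlapping groups without passing the test, and at -0.48 Nf2 did not pass without the library labelled GFP1 either (edgeR adjusted p = 0.0748). Btrc, the ubiquitin ligase subunit that takes part in YAP degradation, had the lowest upstream value, -0.54 (edgeR adjusted p = 0.42). Of the TEAD cofactors, Vgll4, which competes with YAP for TEAD, had a log2 fold change of 0.14 (edgeR adjusted p = 0.76).

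The sorted cells carried CM markers, the sum of 10 CM genes being 109000 and 96800 CPM in SRF-OE and 115000, 150000 and 170000 CPM in GFP, and none of the 10 was at 0 in all libraries. Sums of 10 markers of other cell types, none at 0 in all libraries, also moved with the libraries. Endothelial markers summed to 892 and 345 CPM in SRF-OE replicates 2 and 3 and to 685, 372 and 354 CPM in GFP replicates 1, 2 and 3. Fibroblast markers summed to 926 and 462 CPM in SRF-OE and to 500, 393 and 334 CPM in GFP. Of these 10 genes, 4 were higher in SRF-OE without overlap of the groups and 0 lower, against 16.1% and 17.3% of all genes. Against GFP replicates 2 and 3 alone, both SRF-OE libraries were higher for 10 fibroblast, 6 smooth muscle and pericyte, 5 leukocyte and 1 endothelial markers. Each list holds 10, and the share of all genes in that position was not computed. Leukocyte markers summed to 17.1 to 46.4 CPM in SRF-OE and 14.8 to 37.5 CPM in GFP.

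Smooth muscle and pericyte markers summed to 690 to 707 CPM in SRF-OE and 548 to 733 CPM in GFP, but Abcc9, at 260.2 to 393.1 CPM a large part of each sum, was lower in SRF-OE. Of the 10 markers 9 had a positive log2 fold change, with a median of 0.62, or 1.00 without the library labelled GFP1. The 9 markers other than Abcc9, a selection made after the values were seen, summed to 384 and 430 CPM in SRF-OE, 376 CPM in the library labelled GFP1, and 155 and 198 CPM in GFP replicates 2 and 3. Cspg4, a pericyte proteoglycan, stood at 103.4 and 180.4 CPM in SRF-OE and at 138.9, 55.1 and 63.8 CPM in GFP. Tagln, Cnn1 and Mylk of this list are also known SRF targets, and each was highest in SRF-OE replicate 3.

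Ctgf, Ankrd1 and Tgfb2 were highest in SRF-OE replicate 3, where the endothelial sum was the lowest of all libraries and the fibroblast sum was below that of the library labelled GFP1, but where Cspg4, Tagln, Cnn1 and Mylk of the smooth muscle and pericyte list were also highest. Ccdc80, Axl and Tead2 were highest in SRF-OE replicate 2, which had the highest endothelial and fibroblast sums. The part of these cells in the differences of the 9 genes was not tested. In bulk samples, fewer cells of a type and less RNA per cell cannot be told apart.

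**Figure D5:**
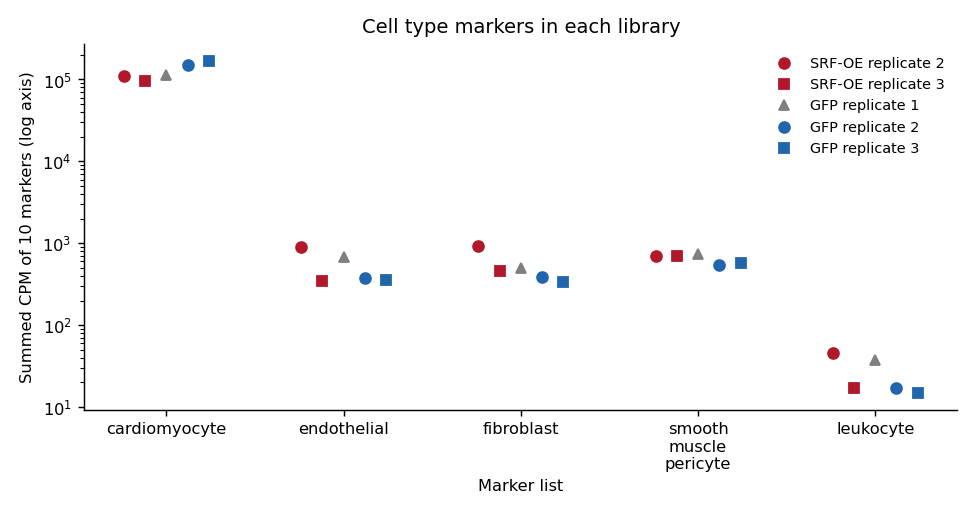
Summed level (CPM, log axis) of 10 marker genes for each of 5 cell types in the 5 libraries, with circles and squares for replicates 2 and 3, red for SRF-OE and blue for GFP, and a grey triangle for the library labelled GFP1. The CM sum is at least 96800 CPM in every library, and SRF-OE replicate 2 has the highest endothelial, fibroblast and leukocyte sums.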

How the data were processed

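RNA-seq of sorted GFP+ CMs was used. Per the submitters' processing notes, CASAVA 1.8, STAR 2.5.3a, featureCounts of Subread 1.5.2 and the mm10 build were used. The authors deposited raw counts per gene without normalization in 1 table, and the settings for strand and multiply mapped reads are not given in the sources used here. The column headed OE1 holds gene lengths, with 0 zeros, and served only as length. Tests were designed for the other 5 columns, and 0 columns of counts were left unused.

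edgeR 4.0.16 in R 4.3.3 was used on the deposited counts (filterByExpr, TMM, glmQLFit, glmQLFTest), followed by Benjamini-Hochberg adjustment over all genes tested with a cutoff of 0.05. The standard error is the size of the log2 fold change divided by the square root of F. Library sizes of 14137433 to 23159631 counts leave counting error that matters mainly for Tead4. Alternatives were DESeq2 1.42.0, its size factors in edgeR, no filter on low counts, a replicate block, omission of each library in turn, and combinations of these without the library labelled GFP1. The edgeR and DESeq2 fits with 5 libraries were tested on simulated data, and the other alternatives were not. The simulated counts had a single spread for all genes and no library that departed from its group. They therefore do not show how many changes could be detected in these data.

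The members and gene lists were chosen with earlier results of these data known, so no list is independent support. Named are all members and family partners, list genes past the cutoff with 5 or 4 libraries, the extremes of each list (mean CPM of 10 or more), and the 3 nearest patterns to Ctgf and Yap1, of which 1 is not reported here. Axl, Flna, Fhl2, Cspg4, Cnn1, Mylk, Abcc9, Myh11, Pdgfrb, Rgs5, Kcnj8, Notch3, Strn3, Slmap and Ywhae, outside this rule, were chosen after their values were seen. Jub and Emr1 were matched to Ajuba and Adgre1 through RefSeq synonyms. Positions are from GENCODE M21 on GRCm38 and promoters from RefSeq on GRCm38.p6, the same assembly as mm10.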

Additional observations from a re-analysis of the deposited data

How the results depend on the processing

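Of 108 member values recomputed under 12 alternatives, 105 kept their direction; without SRF-OE replicate 3, Yap1, Tead4 and Ajuba changed sign, and leaving out each library in turn gave -0.046 to 0.336, -2.29 to 0.79 and -0.65 to 0.16 for them. Over all genes, calls higher and lower were 11 and 213 with DESeq2 (1.02% and 19.7% of the genes with an adjusted p). Leaving out each GFP library in turn gave 0 to 265 (at most 1.98%) and 0 to 130 (at most 0.97%). Without the library labelled GFP1, DESeq2 called 853 and 833 (6.31% and 6.16% of the genes with an adjusted p). The fit with no filter and without it called 1660 and 1303 (7.75% and 6.09%). Among members, 1 was higher (Ctgf) with DESeq2 on 5 libraries, with the block, and in the 3 combinations without the library labelled GFP1, and 1 was lower (Cyr61, -0.48, adjusted p = 0.0352) with no filter without that library; leaving out 1 library gave 0 to 0 calls. The pathway list had 0 to 1 called higher leaving out each library, 1 with DESeq2 and 6 with no filter without the library labelled GFP1, and 1 and 3 lower in these. Its median ranged from -0.00138 to 0.183 leaving out each library, and was 0.161 with DESeq2 and 0.157 with no filter without the library labelled GFP1. The target list had 1 higher with DESeq2, 0 to 4 leaving out each library, and 8 with DESeq2 and 8 with no filter without that library, with 1 and 3 lower. Its median ranged from 0.282 to 1.14, and was 1.14 and 1.13 in the last 2. The ratio of Ctgf to Cyr61 differed by 1.24 to 1.89 leaving out each library, an alternative chosen after its values were seen. The cause of these shifts was not tested. Where a group is left with 1 library, that library is assumed to vary like the other group.

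The replicate numbers give 2 pairs, the labels name no shared litter or day, and deviations of same-numbered libraries correlated at 0.41 for number 2 and -0.086 for number 3, and at 0.224 for both without the library labelled GFP1. With fewer than 3 pairs the numbers were not taken to pair the samples. With the replicate block, 582 genes (4.23%) were higher and 432 (3.14%) lower. Without the library labelled GFP1, whose own number has no SRF-OE partner, these were 547 (4.08%) and 392 (2.93%). With the block, Ctgf was 1.39 (adjusted p = 0.0336). The pathway list had 1 higher in both block fits and medians of 0.148 and 0.167. In both, the target list had 6 higher and 1 lower, F3, with medians of 1.07 and 1.08.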

Other observations

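The actin-cytoskeletal and immediate early targets of SRF and MRTF, some of which share upstream inputs with YAP and TAZ, were split in direction. Of 13 genes tested with the 5 libraries, 6 had a positive and 7 a negative log2 fold change, with a median of -0.28 against 0.03 over all genes. edgeR called 0 of them at an adjusted p under 0.05, and 4 were higher and 3 lower at an unadjusted p under 0.05 (6.35% and 7.59% of all genes). DESeq2, which gave an adjusted p to only some of the 13, called Flna higher and Acta2 and Fhl2 lower. Over the genes with an adjusted p these shares were 1.02% and 19.7%. Without the library labelled GFP1, edgeR called Tagln higher and Acta2 lower, against 1.98% and 0.97% of all genes.

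Tagln, an actin-binding protein of smooth muscle, stood at 36.2 and 83.5 CPM in SRF-OE and at 20.2, 6.15 and 10.0 CPM in GFP, and rose by 2.92 (standard error 0.46, edgeR adjusted p = 0.0473) without the library labelled GFP1. Acta2, smooth muscle actin, stood at 530.3 and 371.8 CPM in SRF-OE and at 462.7, 1018 and 1463 CPM in GFP, and its log2 fold change in that fit was -1.45 (edgeR adjusted p = 0.0499). The library labelled GFP1 lay between the SRF-OE values for Acta2. Fos, an immediate early gene, stood at 20.4 and 24.7 CPM in SRF-OE and at 45.7, 38.5 and 75.2 CPM in GFP, a log2 fold change of -1.23 (edgeR adjusted p = 0.35). Of the fibroblast markers, Ddr2, a collagen receptor, was called without the library labelled GFP1, with a log2 fold change of 1.88 (edgeR adjusted p = 0.0423).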
